A study of Homo sapiens with 12 samples.

Results

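Ishikawa cells, a human endometrial adenocarcinoma line, were profiled on 12 expression arrays, and the 6 arrays of control cells are compared here: 3 in the condition labelled ERα(+) against 3 in the condition labelled ERα(-). These 6 arrays were taken by their sample titles, and the comparison was made across all 14884 genes that had a named probe set. The other 6 arrays carry the label shMOF, by its name a short hairpin against MOF, the histone acetyltransferase encoded by KAT8, in the same 2 conditions, and they served to estimate the spread and as a second comparison set beside the first. All 12 arrays share the cell line, the Trizol extraction of total RNA and the biotin label. What separates ERα(-) from ERα(+), what the control cells carry, and whether replicates were separate cultures: none of these is given in the sources used here. P-values therefore measure the spread between arrays, which may be technical, and the results describe a single line. The series is about MOF and ERα acting on each other in endometrial cancer, and in control cells its design compares transcription between both ERα conditions. Values are log2 RMA signals, so a difference of 1 is a 2-fold change, and a probe set's signal is comparable between arrays but not between genes.

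ERα, the receptor encoded by ESR1, is a ligand-activated transcription factor. Bound to oestrogen, it sits on palindromic response elements or on other factors already on the DNA, recruits co-activators such as the p160 proteins and Mediator, and drives proliferation of the endometrial epithelium during the cycle. PGR, GREB1 and TFF1 are among its classical targets. The type I interferon response is a separate programme that most epithelial cells carry. RIG-I-like sensors recognise viral RNA, secreted interferon signals through JAK kinases to transcription factors such as IRF9, and these bind an interferon-stimulated response element in the promoters of the antiviral effector genes.

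The promoters of 6 genes are printed because the interferon response had the largest share of members counted as lower in control ERα(+) among the gene lists described here. They come from RefSeq (GRCh38.p14, 250 bases before to 50 bases after the annotated start, 5′ to 3′ on the gene's strand), and capitals mark matches on either strand to GAAA, any 2 bases and GAAA, the core of the response element. The first 4 belong to genes that were lower, and ISG15 and IFITM3 are interferon-induced genes that hold the same letters but whose groups overlapped.
IFI44L promoter, chr1:78620198-78620497, plus strand: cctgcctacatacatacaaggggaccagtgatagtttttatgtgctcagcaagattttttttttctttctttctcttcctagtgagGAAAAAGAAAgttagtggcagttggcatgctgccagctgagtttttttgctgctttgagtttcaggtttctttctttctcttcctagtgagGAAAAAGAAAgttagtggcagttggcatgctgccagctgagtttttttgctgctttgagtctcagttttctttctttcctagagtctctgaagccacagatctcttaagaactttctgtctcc
IFIT3 promoter, chr10:89327747-89328046, plus strand: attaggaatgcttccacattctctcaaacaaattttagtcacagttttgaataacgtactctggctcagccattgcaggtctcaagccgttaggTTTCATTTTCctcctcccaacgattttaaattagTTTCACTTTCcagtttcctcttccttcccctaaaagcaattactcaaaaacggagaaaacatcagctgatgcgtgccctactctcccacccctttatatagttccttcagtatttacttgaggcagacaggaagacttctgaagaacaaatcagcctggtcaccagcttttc
IFIT1 promoter, chr10:89392373-89392672, plus strand: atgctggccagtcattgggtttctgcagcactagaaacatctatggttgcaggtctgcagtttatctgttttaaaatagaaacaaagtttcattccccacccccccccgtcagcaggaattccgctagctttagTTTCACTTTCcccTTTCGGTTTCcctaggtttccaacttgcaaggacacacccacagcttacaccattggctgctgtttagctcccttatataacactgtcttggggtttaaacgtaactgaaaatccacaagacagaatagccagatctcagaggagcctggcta
IFIH1 promoter, chr2:162318635-162318934, minus strand: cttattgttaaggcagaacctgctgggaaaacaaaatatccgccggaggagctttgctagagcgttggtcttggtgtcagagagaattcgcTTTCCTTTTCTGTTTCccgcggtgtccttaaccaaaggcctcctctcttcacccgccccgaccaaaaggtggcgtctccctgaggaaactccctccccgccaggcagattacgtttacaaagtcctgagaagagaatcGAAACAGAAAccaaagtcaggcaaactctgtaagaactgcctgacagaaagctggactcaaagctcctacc
ISG15 promoter, chr1:1013247-1013546, plus strand: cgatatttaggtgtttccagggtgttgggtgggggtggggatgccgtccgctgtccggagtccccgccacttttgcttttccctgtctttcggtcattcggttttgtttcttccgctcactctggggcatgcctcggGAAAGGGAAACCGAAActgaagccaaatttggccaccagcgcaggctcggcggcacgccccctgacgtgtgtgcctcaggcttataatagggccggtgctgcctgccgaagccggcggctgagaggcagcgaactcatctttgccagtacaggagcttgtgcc
IFITM3 promoter, chr11:320811-321110, minus strand: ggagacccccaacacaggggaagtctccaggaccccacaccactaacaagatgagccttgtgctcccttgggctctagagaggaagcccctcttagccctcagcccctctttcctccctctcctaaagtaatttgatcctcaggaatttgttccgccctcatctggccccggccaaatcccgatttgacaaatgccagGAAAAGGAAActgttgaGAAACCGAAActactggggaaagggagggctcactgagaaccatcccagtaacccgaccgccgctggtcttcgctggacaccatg
In IFI44L the matches begin at positions -164 and -73 relative to the start, and in IFIT1 at -116 and -103. In IFIH1 a pair of overlapping matches begins at -159 and -153 and a single match at -21, and in ISG15 an overlapping pair begins at -113 and -107. Of the 54 interferon response genes with a value, 41 had a promoter in the table, and 24 of these (58.5%) held at least 1 match, against 3.65% of all 27305 promoters of that length. Among the 13 promoters of members that were lower at an unadjusted limma p below 0.05, 9 held it (69.2%), and among the 28 promoters of other members, 15 did (53.6%). These letters were thus found in members with a lower signal and in members without. The palindromic oestrogen response element, GGTCA, any 3 bases and TGACC, occurred in 18 of the 27305 promoters (0.0659%) and in 0 of the 26 promoters of oestrogen-induced genes in the table, which says only that these letters are not in this window.

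Mature strands of 4 microRNA loci in RefSeq (GRCh38.p14) are shown because these loci had the smallest p among the named microRNAs, with the seed, bases 2 to 8, in capitals. MicroRNAs act by pairing of the seed with target messages.
hsa-miR-520e-5p, chr19:53675726-53675747, plus strand: cUCAAGAUggaagcaguuucug
hsa-miR-520e-3p, chr19:53675764-53675784, plus strand: aAAGUGCUuccuuuuugaggg
hsa-miR-4653-5p, chr7:101159482-101159503, plus strand: uCUCUGAGcaaggcuuaacacc
hsa-miR-4653-3p, chr7:101159524-101159546, plus strand: uGGAGUUAaggguugcuuggaga
hsa-miR-23a-3p, chr19:13836595-13836615, minus strand: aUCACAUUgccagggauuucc
hsa-miR-23a-5p, chr19:13836630-13836651, minus strand: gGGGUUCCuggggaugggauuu
hsa-miR-548f-3p, chr2:212426284-212426302, minus strand: aAAAACUGuaauuacuuuu
No 2 of these strands share a seed. The MIR4653 hairpin lies within AP1S1 in RefSeq, and MIR520E in the microRNA cluster of chromosome 19.

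The arrays were alike in overall signal. The median signal ranged from 4.53 to 4.59 among the 12 arrays. Pairs of control arrays correlated across genes, which do not count as replicates, at a median r of 0.988 within groups and 0.983 between groups. Control ERα(-) replicate 1 and control ERα(+) replicate 3 stood farthest from the others, at the ends of the second and the first principal component of the 6 arrays, which held 25.9% and 38.4% of the variance. Of the 119 genes named by rule, 18 had a difference that moved by over 1.5 times or changed sign without the first of these arrays and 9 without the second. The cells carried the markers of their label. EPCAM at a mean of 11.53, PAX8, the Müllerian lineage factor, at 10.67 and KRT18 at 10.09 were bright, and 9 of the 10 measured gland epithelium markers lay above the median level of tested genes, 5.67. Of the other cell types, 3 of 10 fibroblast and stromal markers were measured, at 2.06 to 4.98, and 3 of 4 endothelial markers, at 3.78 to 4.48. Of 3 measured immune markers, CD14 and LYZ were dim (3.42 and 3.57), and CD68, a lysosomal protein found in many cell types, was at 7.04. CD68 was also higher in control ERα(+), at 7.03, 7.66 and 7.53, than in control ERα(-), at 6.36, 6.93 and 6.73 (difference 0.73 ± 0.27, SE).

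Limma called 0 of 14884 genes (0.0%) at a Benjamini-Hochberg adjusted p below 0.05 in the fit over all 12 arrays, the smallest adjusted p being 0.319. At an unadjusted p below 0.05 it counted 1894 genes (12.7%), where 744.2 are expected if no gene differs. These were 944 genes higher in ERα(+) (6.34%) and 950 lower (6.38%), or 1152 higher and 766 lower once the arrays were shifted to 1 median. That shift moved the median difference of all genes from -0.002 to 0.02. The 3 arrays of each group did not overlap for 1540 genes that were higher (10.3%) and 1327 that were lower (8.92%). Either direction made up 19.3% of genes. A share of 0.1 is expected from the order of 3 against 3 arrays if no gene differs. In 31 genes (0.208%), 17 higher and 14 lower, an unadjusted p below 0.05, no overlap and a difference of at least 2-fold came together. The count of 1894 depended on the arrays used. Leaving out 1 of the control arrays that did not stand apart gave 1388 to 2463. The count was 1254 without control ERα(-) replicate 1, 1116 without control ERα(+) replicate 3 and 796 without both, the last an alternative chosen after seeing the data. In the same order, 4.32%, 3.57% and 2.67% of all genes were counted as higher in these settings, and 4.11%, 3.93% and 2.67% as lower, and the counts of gene lists without an array are read against these shares. Most genes below are therefore given with their array values or their difference, and "counted" means an unadjusted limma p below 0.05.

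ESR1 itself did not separate the groups. Its probe set, at the 27th percentile of tested genes, read 4.43, 4.12 and 4.28 in control ERα(-) and 4.40, 4.65 and 4.32 in control ERα(+). The groups overlapped, and the difference was 0.18 with a 95% interval from -0.08 to 0.45 (limma adjusted p = 0.521). KAT8 read 6.76, 6.87 and 6.68 against 6.80, 6.60 and 6.81, a difference of -0.03 whose sign turned under 3 of 17 other settings. On the shMOF arrays KAT8 read 6.78, 6.76 and 6.72 in ERα(-) and 6.66, 6.66 and 7.02 in ERα(+), overlapping the control arrays. The shMOF label can thus not be read from the KAT8 probe set. Nor can the ERα label be read from the ESR1 probe set on the control arrays, and ERα(+) and ERα(-) are used as labels of arrays.

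The genes with the largest higher signal in control ERα(+), among those at or above the median level, were led by G0S2, an inhibitor of the triglyceride lipase ATGL. It read 7.54, 8.40 and 7.83 in control ERα(-) and 9.30, 9.80 and 9.62 in control ERα(+). No ERα(+) array came near the ERα(-) arrays, and the difference of 1.65 ± 0.44 (SE) is 3.14-fold. FN1, the extracellular matrix protein fibronectin, read 6.51, 6.60 and 6.38 against 7.53, 8.16 and 8.27. All 3 ERα(+) arrays were higher, by 1.49 ± 0.48 on average or 2.81-fold. CDA, cytidine deaminase, differed by 1.15 ± 0.28 with narrow groups, from 5.76 to 6.02 and from 6.85 to 7.12. LCN2, the iron-carrier protein lipocalin 2, read 8.42, 8.33 and 8.42 in ERα(+) and 7.11 to 7.56 in ERα(-), a difference of 1.09 ± 0.33.

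BMP4, a growth factor of the TGF-beta family, differed by 1.26 ± 0.32, with 5.86, 6.53 and 6.01 against 7.22, 7.71 and 7.25. AXL, a receptor tyrosine kinase, differed by 1.02 ± 0.33, FXYD5, a regulator of the sodium pump, by 1.10 ± 0.35, and GXYLT2, which adds xylose to Notch, by 0.91 ± 0.30. DHRS3, which returns retinaldehyde to retinol, was at 6.89, 6.17 and 6.89 against 7.64, 7.50 and 8.28. EPAS1, the hypoxia-inducible factor HIF-2 alpha, read 6.64, 7.0 and 6.55 against 7.46, 8.22 and 7.65, and was thus higher on each ERα(+) array. ZNF208 (1.11 ± 0.38), the dolichol kinase DOLK (0.90 ± 0.30) and the HSP70 co-chaperone BAG3 (1.0 ± 0.26) complete the protein-coding members. BAG3 and DOLK were lowest on control ERα(-) replicate 1, at 7.31 and 5.95, and without that array their differences shrank to 0.66 and 0.44. SNAR-F, a small non-coding RNA, differed by 1.12 ± 0.31. Its family has near-identical copies, so the value is uncertain as to which copy it reads, and its relatives SNAR-D (0.62), SNAR-C1 (0.45) and SNAR-B1 (0.37) were higher as well.

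**Figure D1:**
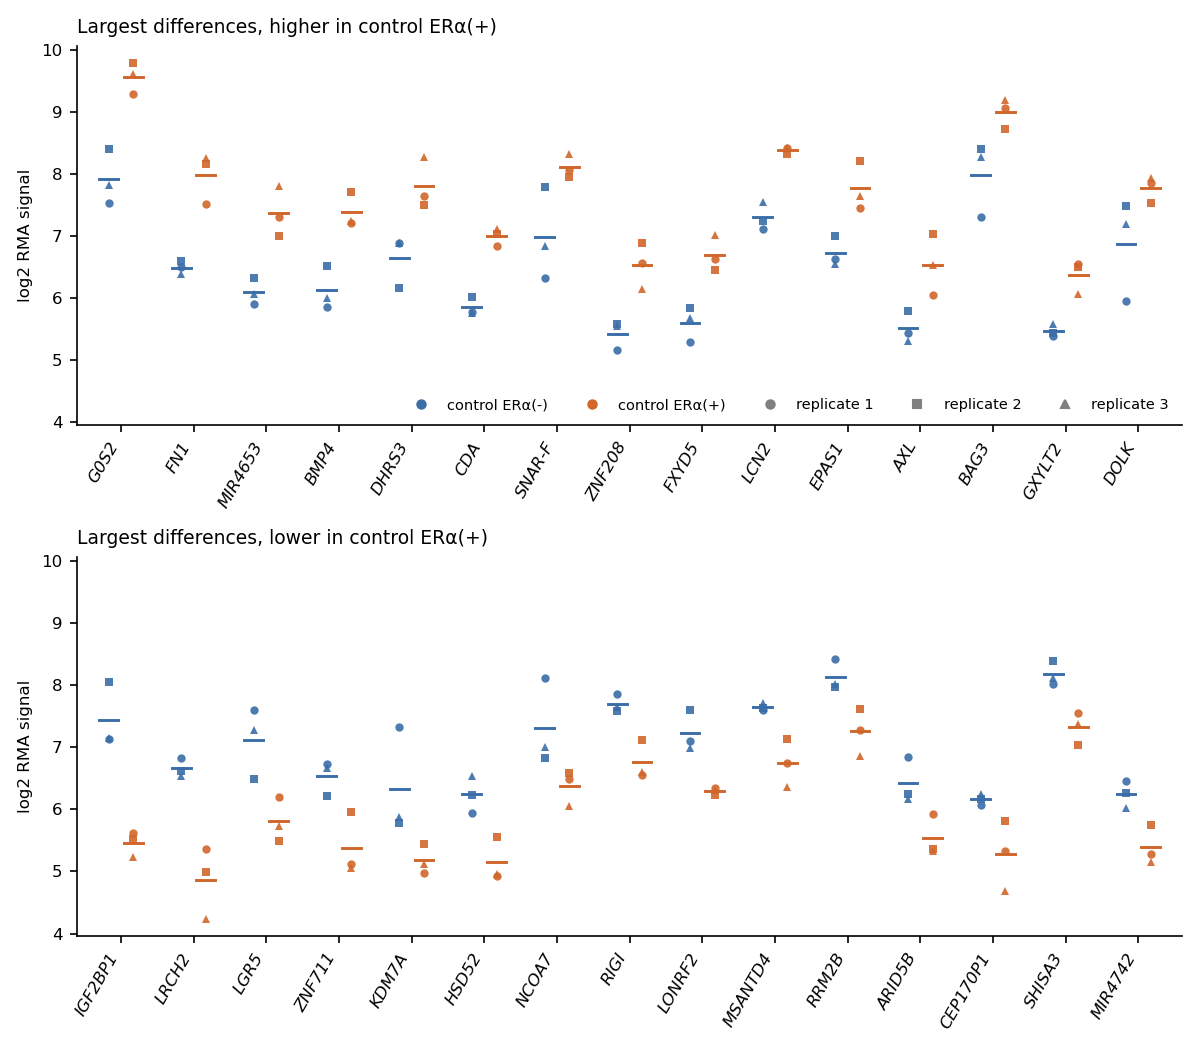
Log2 RMA signal (vertical axis) of the 15 genes with the largest higher and the 15 with the largest lower signal in control ERα(+), drawn for each of the 6 control arrays. Points are arrays, with the replicate given by the symbol, and bars are group means over 3 arrays. Groups do not overlap in any of the 30, which is part of how they were chosen. G0S2 lies between 9.30 and 9.80 in ERα(+) against 7.54 to 8.40 in ERα(-), and IGF2BP1 between 5.23 and 5.62 against 7.14 to 8.05.

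Among genes at or above the median level, the largest lower signal was that of IGF2BP1, an oncofetal protein that binds and stabilises messenger RNA. It read 7.14, 8.05 and 7.15 in control ERα(-) and 5.62, 5.52 and 5.23 in control ERα(+), so that the groups lay over 1 log2 unit apart at their nearest. The difference was -1.99 ± 0.57 (SE), or 3.97-fold, with a 95% interval from -3.22 to -0.76. Its relatives did not follow. IGF2BP2 was at 0.04 and IGF2BP3 at -0.06, and LIN28A and LIN28B, other oncofetal RNA-binding proteins, at 0.05 and 0.10. LRCH2, an X-linked leucine-rich repeat protein, read 6.83, 6.62 and 6.54 against 5.36, 5.0 and 4.23, a difference of -1.80 ± 0.50. LGR5, the R-spondin receptor that marks stem cells in several epithelia, read 7.60, 6.48 and 7.28 against 6.20, 5.49 and 5.73, all ERα(+) arrays being lower (-1.31 ± 0.51).

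KDM7A, a histone demethylase, differed by -1.15 ± 0.34, but its ERα(-) mean owed much to replicate 1 (7.33 against 5.78 and 5.87), and without that array the difference was -0.65. ARID5B, a DNA-binding partner of the demethylase PHF2, differed by -0.89 ± 0.26, at 6.84, 6.25 and 6.17 against 5.92, 5.36 and 5.33. RRM2B, the p53-induced ribonucleotide reductase subunit, read 8.43, 7.97 and 8.03 against 7.29, 7.62 and 6.86 and was lower on every ERα(+) array (-0.89 ± 0.24). SHISA3, which holds back Wnt receptors in the endoplasmic reticulum, read 8.02, 8.40 and 8.11 against 7.56, 7.03 and 7.37. ZNF711, an X-linked zinc finger protein, differed by -1.16 ± 0.29, LONRF2, a ubiquitin ligase, by -0.93 ± 0.31, and MSANTD4 by -0.90 ± 0.22. HSD52, a long non-coding RNA, differed by -1.10 ± 0.24. CEP170P1, a processed copy of CEP170, differed by -0.89 ± 0.28 and can share signal with its parent, which was itself lower (CEP170, -0.63 ± 0.25).

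With only the 6 control arrays in the fit, limma called 9 genes (0.0605%) at a Benjamini-Hochberg adjusted p below 0.05. NEXMIF, an X-linked gene of neurite extension, had the smallest adjusted p there (2.73e-04) and the largest difference of all genes. It read 5.16, 5.01 and 4.96 in control ERα(-) and 3.10, 2.80 and 2.82 in control ERα(+), 2 tight groups that were 2.14 apart (4.40-fold). The other 8, with limma adjusted p from 0.0326 to 0.0349 in that fit, were CDA, FN1, G0S2 and LCN2, which were higher, IFI44L, IGF2BP1 and LRCH2, which were lower, and NBEAP1, which was higher. NBEAP1, a pseudogene related to NBEA, read 3.57, 3.94 and 3.51 against 5.38, 4.97 and 5.96, while NBEA differed the other way (-0.62 ± 0.26). In the fit over 12 arrays the adjusted p of these 9 lay between 0.321 and 0.333, where the SE of the G0S2 difference was 0.44, against 0.22 with the 6 arrays. The 12-array fit takes in the spread of the shMOF arrays. There G0S2 read 9.61, 7.40 and 9.50 in ERα(-) and 8.21, 7.74 and 7.95 in ERα(+). Of all 12 arrays, shMOF ERα(-) replicate 2 deviated most from its group mean (SD across genes 0.23).

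The smallest p of all genes belonged to MIR520E (limma, Benjamini-Hochberg adjusted p = 0.319), described with the other microRNAs. TGFB1I1, also called Hic-5, a focal adhesion protein that acts as a steroid receptor co-activator, read 6.84, 6.93 and 6.70 against 7.80, 7.53 and 7.78 and was higher on each ERα(+) array (0.88 ± 0.15). SOBP read 6.65, 6.49 and 6.38 against 5.81, 5.64 and 5.90, the reverse order (-0.72 ± 0.13). Another 4 genes with a small p were dim, at or below the 19.2nd percentile of control signals. These were KIF5C, a kinesin of neurons (-0.79 ± 0.16), MCF2L2 (-0.76 ± 0.13), LINC00353 (0.81 ± 0.16) and HSD17B3, which makes testosterone from androstenedione (0.51 ± 0.10).

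Genes that oestrogen is known to induce did not move to either side as a list. Of 43 listed, 34 were measured, with a median difference of 0.007 and 17 above 0, and 3 were counted as higher (8.82%, against 6.34% of all genes) and 0 as lower. The split turned with the arrays used, to 1 higher and 2 lower without control ERα(+) replicate 3 and to 0 higher and 2 lower without both outlying arrays. TSKU, a secreted leucine-rich repeat protein, read 7.36, 7.82 and 7.47 against 8.22, 8.07 and 8.47, with no overlap (0.71 ± 0.21). TPD52L1 was at 0.27 ± 0.10, and the small heat shock protein HSPB8 at 0.40 ± 0.18 with overlapping groups. Among the classical targets, GREB1, a co-factor of the receptor, read 5.35, 5.33 and 5.15 against 4.87, 4.91 and 5.20, an overlap by 1 array (-0.28 ± 0.13). PGR, the progesterone receptor, was dim at 3.58, 3.19 and 3.63 against 3.36, 3.21 and 2.94 (-0.30 ± 0.17). TFF1, a secreted trefoil peptide, was at 0.23 ± 0.17, MYC at 0.15 ± 0.14, CCND1 at 0.14 ± 0.16, XBP1 at -0.02 ± 0.12 and IGFBP4 at 0.04 ± 0.13, all with overlapping groups. Without control ERα(+) replicate 3 PGR was at -0.18, TFF1 at 0.06 and MYC at 0.03.

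The receptor and its co-regulators had 30 of 35 members measured (median -0.08, 12 above 0), with 2 counted as higher (6.67%, against 6.34% of all genes) and 3 as lower (10%, against 6.38%), shares near those of all genes. Without control ERα(+) replicate 3, 0 were higher and 3 lower. All 3 of the latter are co-regulators. NCOA7, an oestrogen receptor-associated protein, read 8.12, 6.83 and 7.01 against 6.48, 6.59 and 6.05 (-0.95 ± 0.30), and without control ERα(-) replicate 1, its highest array, it differed by -0.55. MED1, the Mediator subunit that contacts nuclear receptors, read 9.34, 9.24 and 9.37 against 8.93, 9.04 and 8.73, every ERα(+) array being lower (-0.42 ± 0.13). LCOR, a ligand-dependent co-repressor, was at -0.56 ± 0.21. CARM1, an arginine methyltransferase that acts with the p160 co-activators, read 8.53, 9.05 and 8.70 against 9.23, 9.06 and 9.31 (0.44 ± 0.17). The other member counted as higher was the pioneer factor FOXA2 (0.43 ± 0.16), without overlap. The pioneer factors FOXA1 and GATA3 were at -0.14 and 0.04 and were not counted. The 12 members of the MOF complexes MSL and NSL had a median of 0.05, with 7 above 0. HCFC1 (0.34 ± 0.14) and MCRS1 (0.43 ± 0.16), both of the NSL complex, were counted as higher (16.7%, against 6.34% of all genes). Without control ERα(-) replicate 1, 0 members were.

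The interferon response held more counted members on the lower side than any other list but the ZNF genes and the microRNAs, which are far longer. Of 78 listed genes 54 were measured, and the others were not analysed here. The median difference was -0.18 against -0.002 for all genes, 36 of 54 were below 0, 15 were counted as lower (27.8%, against 6.38% of all genes) and 1 as higher. Without control ERα(-) replicate 1, 13 were lower (24.1%), without control ERα(+) replicate 3, 17 (31.5%), and without both, 12 (22.2%). The list was drawn up with an earlier result of these arrays known and is no independent evidence of its direction.

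Among the sensors, IFIH1, which encodes the RNA sensor MDA5, read 5.82, 5.60 and 5.41 in control ERα(-) and 4.74, 4.40 and 4.57 in control ERα(+). The groups lay apart, with a difference of -1.04 ± 0.24. RIGI, the sensor of short double-stranded RNA, read 7.85, 7.58 and 7.66 against 6.56, 7.11 and 6.61 (-0.94 ± 0.23). The other 7 sensors and adaptors were not counted, with EIF2AK2, the kinase PKR, at -0.27, TLR3 at -0.26, DHX58, a regulator of both sensors, at -0.17 and the mitochondrial adaptor MAVS at 0.17. In signalling, IRF9, a transcription factor of the pathway, was at -0.37 and was counted, while JAK1 was at -0.32, IRF7 at -0.13, IRF3 at 0.20 and TYK2 at 0.21.

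Of the 34 effectors, which made up most of the 54 measured members, 12 were counted as lower (35.3%, against 6.38% of all genes). IFI44L read 5.62, 5.27 and 5.31 against 4.26, 3.97 and 4.29, and IFIT3, of a family that binds viral RNA, 5.01, 5.26 and 5.42 against 4.33, 4.43 and 4.58. In each case every ERα(+) array was below every ERα(-) array, by -1.23 ± 0.26 and -0.78 ± 0.16 on average. IFIT1 read 6.27, 6.43 and 6.19 against 5.48, 5.67 and 5.54 (-0.74 ± 0.19). IFIT2 differed by -0.93 and IFIT5, of the same gene cluster, by -0.29 without being counted. SAMD9, a restriction factor of poxviruses, read 5.25, 5.13 and 5.48 against 4.40, 4.49 and 4.15 (-0.94 ± 0.32). HERC5, the ligase that attaches ISG15, was at -0.64, RSAD2, the antiviral enzyme viperin, at -0.72, DDX60 at -0.67, IFI44 at -0.72 and OASL at -0.60. CXCL10, an interferon-induced chemokine that draws T cells, read 5.20, 5.13 and 5.04 against 4.11, 4.70 and 4.34 (-0.74 ± 0.19).

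Not all effectors differed. ISG15, the ubiquitin-like modifier, read 7.39, 6.99 and 6.84 against 6.63, 6.35 and 7.15 with overlap (-0.36 ± 0.19), and the membrane proteins IFITM1, IFITM3 and BST2 were at -0.25, -0.05 and 0.20. PML, the scaffold of nuclear bodies, was the 1 member counted as higher (0.43). The brakes on the pathway, USP18, SOCS1 and SOCS3, were at 0.00, 0.03 and 0.05. Many of these genes were dim: the median level of the 34 effectors was 5.02.

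**Figure D2:**
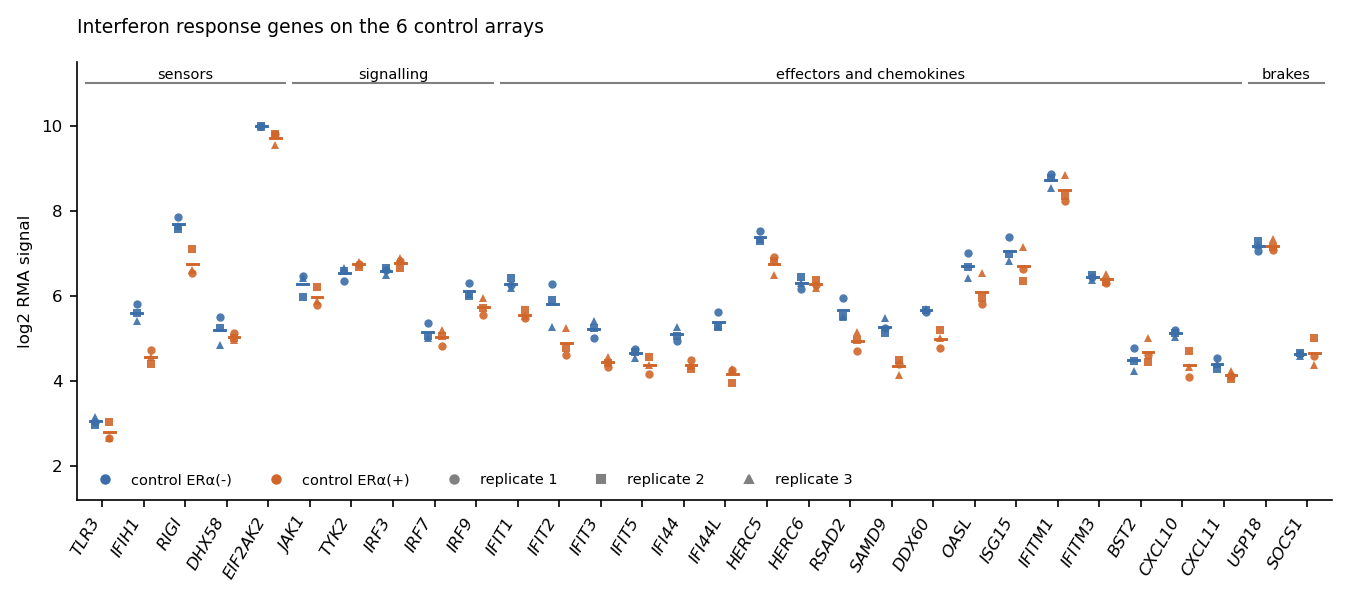
Log2 RMA signal (vertical axis) of 30 interferon response genes, ordered by role, on the 6 control arrays. Points are arrays, with the replicate given by the symbol, and bars are group means over 3 arrays. IFIH1, RIGI, IFIT1, IFIT3, IFI44L and CXCL10 are lower on every ERα(+) array than on every ERα(-) array, whereas IRF3, IFITM3, BST2, USP18 and SOCS1 are not.

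Of 26 endometrial epithelial genes listed, 20 were measured, with a median of 0.19, 17 above 0, and 6 counted as higher (30%, against 6.34% of all genes) and 1, LGR5, as lower. The counted factors were all developmental regulators of the reproductive tract. EMX2 read 7.64, 7.93 and 7.97 against 8.31, 8.26 and 8.50, and LHX1 5.11, 5.34 and 5.71 against 5.81, 6.35 and 6.16. Neither overlapped, at 0.51 ± 0.14 and 0.72 ± 0.17. FOXA2, required for uterine glands, read 6.16, 5.74 and 6.16 against 6.23, 6.46 and 6.66 (0.43 ± 0.16), SOX17 was at 0.48 ± 0.20 with overlap and at 0.27 without control ERα(-) replicate 1, and MSX1 at 0.45. The count of higher members was 3 (15%) without control ERα(-) replicate 1 and 2 (10%) without control ERα(+) replicate 3 or without both.

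Keratins, the intermediate filaments of epithelia, were spread around 0 (47 measured, median 0.02), with 5 counted as higher (10.6%, against 6.34% of all genes) and 1 as lower. Without control ERα(-) replicate 1 1 keratin was counted as higher (2.13%) and 0 as lower. KRT80 read 6.42, 6.70 and 6.44 against 7.22, 7.61 and 7.35 (0.87 ± 0.36), KRT23 was at 0.58 ± 0.21 and KRT7, a simple-epithelium keratin, at 0.48 ± 0.21. KRT2 and KRT10, of skin, were higher too but at signals under 4. Of the junction genes, OCLN, of tight junctions, read 8.54, 8.33 and 8.27 against 7.94, 7.87 and 7.56 (-0.59 ± 0.15). JUP, plakoglobin, went the other way, at 9.51, 9.69 and 9.54 against 10.07, 9.84 and 10.13 (0.44 ± 0.16). Of the 7 mesenchymal genes measured, whose median was -0.03, 1 was counted, fibronectin, as higher (14.3%, against 6.34% of all genes).

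In the Wnt pathway, with 28 of 35 genes measured, 5 were counted as lower (17.9%, against 6.38% of all genes) and 1 as higher. Besides LGR5 and SHISA3 these were WLS, which carries Wnt ligands to the cell surface, at 7.15, 6.92 and 6.87 against 6.38, 6.41 and 6.54 (-0.54 ± 0.13), the co-receptor LRP6 (-0.31) and APC, of the complex that degrades beta-catenin (-0.54 ± 0.25). LEF1, a nuclear partner of beta-catenin, was higher (0.63 ± 0.26), by 0.34 without control ERα(-) replicate 1, and APC was at -0.31 without control ERα(+) replicate 3. AXIN2, RNF43 and SP5, other Wnt genes chosen after their values were seen, were at 0.13, 0.07 and -0.01. Without control ERα(-) replicate 1, 2 Wnt genes were counted as lower (7.14%), and without control ERα(+) replicate 3, 3 (10.7%). Of 27 growth factor receptors and ligands, 1 was counted as lower (3.7%, against 6.38% of all genes) and 0 as higher. It was ERBB4, a receptor of neuregulins, at 5.41, 5.53 and 5.26 against 4.63, 4.58 and 4.13 (-0.96 ± 0.26).

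HOX genes, which set position along the body axis, had 5 of 27 members counted as lower (18.5%, against 6.38% of all genes). Of these, 4 lie in the HOXD cluster: HOXD4 (-0.47 ± 0.13), HOXD10 (-0.33 ± 0.13), HOXD11 (-0.33 ± 0.13) and HOXD3 (-0.28), and the other is HOXC8 (-0.35 ± 0.15). HOXA2 was counted as higher, with overlap (0.51). HOXD4 read 6.19, 5.97 and 5.81 against 5.65, 5.38 and 5.55 without overlap, while HOXD9 (-0.03), HOXD8 (-0.06) and HOXD1 (0.03) of the same cluster were near 0. Without control ERα(-) replicate 1, 1 HOX gene was counted as lower (3.7%, no more than the share of all genes there), and without control ERα(+) replicate 3 4 were (14.8%).

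Most genes of translation and respiration had differences above 0, though few were counted. Cytosolic ribosomal proteins had a median of 0.13 with 39 of 46 above 0, mitochondrial ribosomal proteins 0.14 with 55 of 73, and oxidative phosphorylation subunits 0.14 with 13 of 17. In that order 6, 7 and 0 were counted as higher (13%, 9.59% and 0.0%, against 6.34% of all genes), and 0 in each as lower. RPL39 had the largest difference, at 7.59, 7.72 and 7.42 against 8.39, 8.45 and 7.89 (0.66 ± 0.16), but its other probe set differed by 0.02. RPS26 (0.57 ± 0.20, and 0.30 without control ERα(-) replicate 1), RPS15A (0.51 ± 0.17) and MRPL46 (0.42 ± 0.12) followed. Ribosomal protein genes have many processed copies, so their probe sets can share signal. Without control ERα(+) replicate 3 3, 2 and 1 were counted as higher, and without both outlying arrays 1, 1 and 0, with medians of 0.08, 0.06 and 0.05.

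Of 28 genes of G2 phase and mitosis, 6 were counted as higher (21.4%, against 6.34% of all genes) and 0 as lower, with a median of 0.07. PLK1, the mitotic kinase, read 9.83, 10.36 and 10.11 against 10.56, 10.47 and 10.69 (0.47 ± 0.16), the kinesin KIF20A 8.51, 9.38 and 9.37 against 9.61, 9.65 and 9.65 (0.55 ± 0.19), and CCNF was at 0.49 ± 0.16. In each, control ERα(-) replicate 1 was the lowest array, and without it 1 member of the list was counted as higher (3.57%, against 4.32% of all genes), the median was -0.05 and KIF20A was at 0.26. With all arrays 20 of the 28 members were above 0, and without that array 12 were. CDC20 (0.45, and 0.22 without that array) and CDC25C (0.29, and 0.18 without control ERα(+) replicate 3) were also counted. CDK1 was at -0.20, TOP2A at -0.27 and MKI67 at 0.09. Genes of G1 and S phase had a median of 0.10 with 18 of 25 above 0 and 1 counted as higher (4%, against 6.34% of all genes). It was the replication factor GINS2 (0.40 ± 0.18, and 0.19 without control ERα(-) replicate 1).

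Of 436 measured genes named ZNF, a family with many KRAB-domain repressors, the median was -0.09, 292 were below 0, and 63 were counted as lower (14.4%, against 6.38%) and 10 as higher. ZNF121 read 9.52, 9.64 and 9.68 against 9.16, 9.14 and 8.92 (-0.54 ± 0.14), and ZNF823 6.87, 6.70 and 6.88 against 5.98, 6.58 and 6.23 (-0.55 ± 0.16). The count of lower members was 41 (9.4%, against 4.11% of all genes) without control ERα(-) replicate 1 and 22 (5.05%, against 3.93%) without control ERα(+) replicate 3, on which the list mean was 0.13 below its mean over the 6 arrays. DNA repair genes had a median of -0.15 with 11 of 13 below 0, of which 1, the checkpoint kinase CHEK1, was counted (-0.34 ± 0.15), a share of 7.69% against 6.38% of all genes. On the same array their mean was 0.32 below, and without it 0 were counted, the median was -0.075 and CHEK1 was at -0.21.

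The hypoxia and ATF4 genes turned on a single array. Of 14 hypoxia genes 12 were below 0 with a median of -0.40, but control ERα(-) replicate 1 stood 1.39 above the list's mean over the 6 arrays, and all other arrays lay between -0.45 and -0.06. BNIP3, a mitophagy receptor, read 11.60 on that array and 8.49 to 9.30 on the other 5, and NDRG1 7.97 against 5.38 to 6.83. Without it the median was 0.20, with 9 of 14 above 0 and 5 counted as higher (35.7%, against 4.32% of all genes). The unfolded protein and ATF4 list, with DDIT3, the stress factor CHOP, at 8.26 on that array and 5.40 to 6.08 on the others, went from -0.16 to 0.09. Of 22 immediate early genes 3 were counted as lower (13.6%, against 6.38% of all genes), and 1 was without control ERα(-) replicate 1. EGR1 was at 7.78, 6.81 and 7.55 against 6.26, 6.10 and 6.98 (-0.93 ± 0.28) with overlap, and FOSL1, a partner of JUN, was at 7.07, 7.44 and 6.83 against 7.73, 8.02 and 7.66 (0.69 ± 0.24). The second EGR1 probe set, at a mean of 3.45, differed by -0.20.

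**Figure D3:**
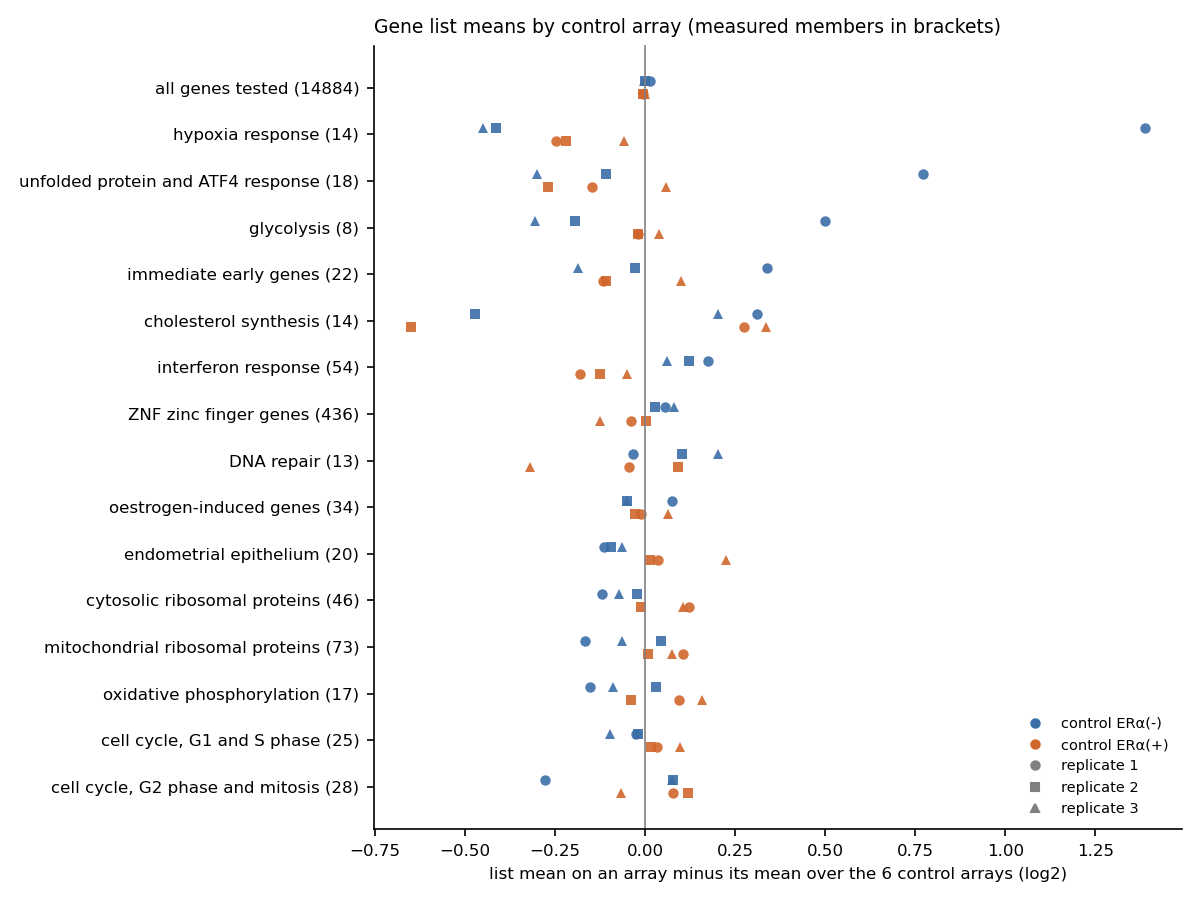
Mean of a gene list on each control array minus its mean over the 6 control arrays, in log2 units (horizontal axis), for 15 lists and all genes tested. Points are arrays, with the replicate given by the symbol. Hypoxia response on control ERα(-) replicate 1 lies at 1.39 while all other arrays are between -0.45 and -0.06, and the 3 ERα(-) arrays of the interferon response (0.06 to 0.17) lie above the 3 ERα(+) arrays (-0.18 to -0.05).

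The remaining lists held few counted members. Glycolysis (8 measured) had PGAM1 counted as higher (12.5%, against 6.34% of all genes). It read 6.91, 6.70 and 6.66 against 7.23, 7.34 and 7.26 (0.52 ± 0.12), with no overlap. The list median was -0.007, or 0.15 without control ERα(-) replicate 1. Of 12 p53 targets, TP53I3 was counted as higher (0.36 ± 0.15) and RRM2B as lower (8.33% each, against 6.34% and 6.38% of all genes). Of 14 apoptosis genes APAF1, of the apoptosome, was counted as lower (-0.47 ± 0.18), a share of 7.14% against 6.38%. Of 12 cytokines and NF-kB genes CCL5 was counted as lower (-0.38 ± 0.16, with overlap), a share of 8.33% against 6.38%. Antigen presentation, with 4 genes measured, had a median of -0.06. Cholesterol synthesis had a median of 0.10, but 0.20 without control ERα(-) replicate 1 and -0.074 without control ERα(+) replicate 3, and enzymes of oestrogen synthesis -0.10, but 0.03 without control ERα(-) replicate 1. In antigen presentation, cholesterol synthesis and oestrogen synthesis 0 genes were counted.

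MicroRNA loci, a list added after the data were seen, had 1088 members at a median level of 3.68. A probe set on this array reads RNA of the locus, and mature, precursor and host transcripts cannot be told apart. Counted members numbered 88 higher (8.09%, against 6.34%) and 52 lower (4.78%, against 6.38%). MIR520E read 4.43, 4.07 and 3.99 against 4.97, 4.98 and 5.34, higher on every ERα(+) array (0.93 ± 0.16). Others of its cluster differed in both directions, MIR520A by 0.67 and MIR512-2 by -0.58, both named after their values were seen. MIR4653 read 5.90, 6.33 and 6.06 against 7.32, 7.0 and 7.81 (1.28 ± 0.25), and its other probe set differed by 1.09.

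Lower microRNA loci included MIR23A, at 4.31, 4.25 and 4.5 against 3.12, 3.76 and 3.33 (-0.95 ± 0.18). MIR27A and MIR24-2, transcribed in the same cluster, were at -0.17 ± 0.23 and 0.32 ± 0.17 and overlapped. MIR548F2 read 4.55, 4.53 and 3.91 against 3.37, 3.23 and 2.92 (-1.15 ± 0.25). MIR4742, which lies in WDR26, was at -0.85 ± 0.26, and WDR26 itself at -0.30 ± 0.14 with overlap. MIR135A2, at 1.71, 1.74 and 1.81 against 2.22, 2.43 and 2.15, was higher but at the 2.3rd percentile of signals. Small Cajal body RNAs, which guide modification of spliceosomal RNA, had 17 of 22 above 0 (median 0.19) with 5 counted as higher (22.7%, against 6.34% of all genes) and 1 as lower. Without control ERα(+) replicate 3 or without both outlying arrays 2 were counted as higher (9.09%), and the median without both was 0.07. SCARNA15 led them at 0.96 ± 0.37 with overlap, and at 0.61 without control ERα(-) replicate 1.

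Differences were graded with the genomic span of a gene. Among genes at or above the median level, sorted into 5 equal bins by RefSeq span (GRCh38.p14), the median difference was 0.11 in the shortest bin (median span 3960 bases), 0.09, -0.004 and -0.06 in the next 3, and -0.09 in the longest (142423 bases). Of the shortest bin 13.1% were counted as higher and 3.02% as lower, and of the longest 5.51% and 12%. Control ERα(+) replicate 3 showed the steepest gradient, from 0.16 to -0.15 around the 6-array mean, while control ERα(+) replicate 2 ran the other way, from -0.04 to 0.07. Several lists lie at an end of this range: the median span was 4917 bases for cytosolic and 8667 for mitochondrial ribosomal proteins, 54093 for DNA repair and 65159.5 for Wnt genes, against 19559.5 for interferon genes. The part of span in the differences of these lists was not tested.

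**Figure D4:**
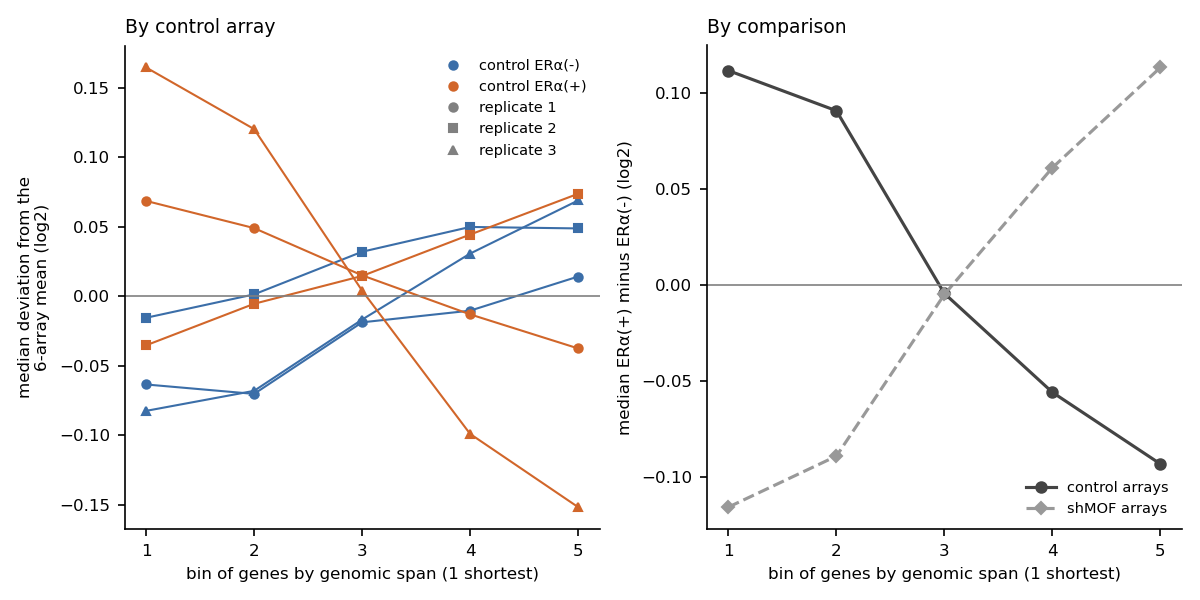
Genes at or above the median level in 5 groups by genomic span (horizontal axis, 1 shortest). Left, the median deviation from the 6-array mean in log2 units for each control array. Right, the median ERα(+) minus ERα(-) difference in log2 units for the control and the shMOF arrays. The control line falls from 0.11 to -0.09, the shMOF line runs from -0.12 to 0.11, and control ERα(+) replicate 3 is the steepest single array.

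The ERα comparison of the shMOF arrays, which shares no array with that of the control arrays, ran mostly in the opposite direction. The sign was opposite for 66.9% of all 14884 genes, for 1607 of the 1894 counted genes (84.8%) and for 29 of the 30 genes with the largest differences. Across genes, which are not independent, the 2 sets of differences had r = -0.49 over all genes. IGF2BP1 was at -1.99 in control and 0.91 in shMOF arrays, NEXMIF at -2.14 and 0.86, LRCH2 at -1.80 and 1.03, and LGR5 at -1.31 and 1.0. On the other side, G0S2 was at 1.65 and -0.87, DHRS3 at 1.16 and -0.98, FN1 at 1.49 and -0.47 and BMP4 at 1.26 and -0.58. On the shMOF arrays, however, the groups of each of these genes overlapped. IGF2BP1 read 5.57, 7.22 and 5.34 in shMOF ERα(-) and 5.36, 7.71 and 7.77 in shMOF ERα(+). FN1 read 8.34, 6.14 and 8.34 against 7.95, 6.71 and 6.75. In both, shMOF ERα(-) replicate 2 and shMOF ERα(+) replicate 1 lay with arrays of the other label.

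Opposite signs were also seen for interferon genes. IFI44L was at -1.23 and 1.10, IFIH1 at -1.04 and 0.79, CXCL10 at -0.74 and 0.73 and IFIT3 at -0.78 and 0.64. On the shMOF arrays IFI44L overlapped, at 4.38, 5.42 and 4.41 in ERα(-) and 5.35, 6.17 and 6.0 in ERα(+). IFIT3 did not, at 4.61, 5.03 and 4.56 against 5.17, 5.37 and 5.56. The interferon list's median was -0.18 in control and 0.12 in shMOF arrays, and 47 of its 54 members had opposite signs. So had 37 of 46 cytosolic ribosomal proteins (medians 0.13 and -0.12), 320 of 436 ZNF genes (-0.09 and 0.11) and the bins of shortest and longest genes. MIR520E (0.93 and 0.35), MIR23A (-0.95 and -0.49), MCF2L2 (-0.76 and -0.30) and SCARNA15 (0.96 and 0.29) kept their sign in both sets. The shMOF comparison alone had 0 genes called (0.0%) and 793 counted (5.33%).

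The test of the difference between both ERα comparisons, the interaction in limma, called 0 genes (0.0%) after Benjamini-Hochberg adjustment and counted 2685 (18%). The smallest adjusted p, 0.0696, was shared by LINC00353, SOBP, KIF5C, IFIT3 and IFI44L, whose interactions were -1.54, 1.21, 1.45, 1.42 and 2.33. On the shMOF arrays the groups of IFI44L overlapped, and those of LINC00353, SOBP, KIF5C and IFIT3 did not. A difference between control and shMOF arrays in the ERα comparison is therefore not called for any single gene.

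**Figure D5:**
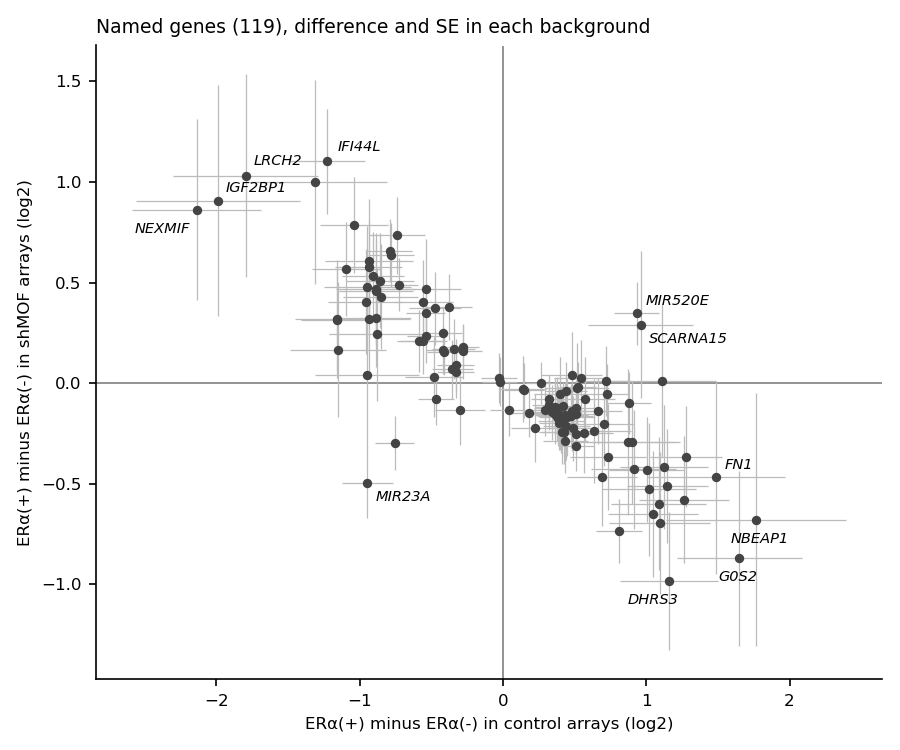
Difference between ERα(+) and ERα(-) in log2 units in the control arrays (horizontal axis) and in the shMOF arrays (vertical axis) for the 119 genes named by rule. Points are limma estimates and lines are SE, from 3 arrays a group. Of the 119 genes 108 have opposite signs in the 2 comparisons, among them NEXMIF, IGF2BP1, LRCH2, IFI44L, G0S2 and DHRS3, while MIR520E, SCARNA15 and MIR23A have the same sign.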

How the data were processed

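Total RNA of 12 Ishikawa samples was hybridised to 1-colour arrays. The submitters' processing notes name RMA and Affymetrix Expression Console 1.4.1 for the deposited log2 signals, and the build of the annotation is not given in the sources used here. Of 53617 probe sets, 16098 had 1 gene symbol in the platform annotation, 0 had several and 37519 had none. Each of 14884 genes was read by its brightest probe set over the 12 arrays. The number of arrays limits the precision: the median half-width of a 95% interval was 0.33.

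Limma 3.58.1 in R 4.3.3 was fitted to 4 groups over all 12 arrays (residual df 8), with two-sided tests and Benjamini-Hochberg adjustment. An exact permutation test of 3 against 3 arrays cannot go below 0.1. Tables were made with Python 3.11.15 and pandas 2.3.3, and the fit was tested on simulated data. The fit did not pair arrays by replicate number. Deviations of same-numbered arrays correlated at -0.02, 0.07 and -0.17, and those of differently numbered arrays at -0.15 to 0.16. So few values cannot exclude a pairing.

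Named genes were KAT8, ESR1 and 7 oestrogen targets, up to 15 a direction with the largest difference (unadjusted p below 0.05, no overlap, mean at or above the median), up to 5 a direction with the smallest p, those called with 6 arrays, and up to 5 a list with the smallest p. Members and lists were chosen with earlier results of these data known. Genes outside this rule, such as NBEA, CEP170, WDR26, the SNAR copies, MIR27A, MIR24-2 and list members near 0, were chosen after their values were seen.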

Additional observations from a re-analysis of the deposited data

How the results depend on the processing

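Over 17 alternatives, 114 of the 119 named genes kept the direction of their difference. Most of the 119 were chosen from these same arrays for a large difference or a small p, so this count is no test of their direction. The 5 that turned, KAT8, TFF1, CCND1, XBP1 and IGFBP4, were named whatever their values. With array quality weights KAT8 was at 0.016, TFF1 at -0.015, CCND1 at -0.016 and XBP1 at 0.045, each on the other side of 0. Leaving out 1 array gave KAT8 -0.075 to 0.040, CCND1 -0.075 to 0.30, XBP1 -0.095 to 0.081 and IGFBP4 -0.0039 to 0.096, and leaving out both outlying arrays gave CCND1 -0.11. Limma's adjusted calls went from 0 to 217 with array quality weights, which ranged from 0.359 to 8.86, and to 9 with only the 6 control arrays; the cause was not tested. Genes at an unadjusted p below 0.05 numbered 3687 with the weights (1839 higher, 1848 lower) and 796 without both outlying arrays (398 higher, 398 lower). Leaving out 1 array gave 1116 to 2463, with 531 to 1110 higher and 585 to 1353 lower. Genes whose groups did not overlap made up 26.2% to 36.7% without 1 array and 40.0% without both, where fewer arrays make overlap rarer. With the replicate block, limma called 0 genes and counted 2186 (1008 higher, 1178 lower), and with the code letter of the samples as a random block 2151; the labels do not say that this letter is a batch. Of 33 list medians, 11 kept their sign under every alternative run.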
